A study of Homo sapiens with 8 samples.

Results

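The genes described here are 35 ribosome biogenesis genes, given by a list of symbols, and all 35 were found among the 58302 genes counted in 8 RNA libraries of RD cells. RD is a human line from a rhabdomyosarcoma, a tumour of the skeletal muscle lineage. The shPROX1 group (4 libraries) carried a short hairpin RNA against PROX1, a homeobox transcription factor, and the control group (4 libraries) carried a scrambled hairpin. All libraries came from the same line in serum-containing medium. Neither the hairpin sequence nor its vector is given in the sources used here, nor whether the cells were a pool or a clone. The series title ties PROX1 to the growth of rhabdomyosarcoma, and the comparison asks which transcripts differed after silencing.

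Ribosomes are built in the nucleolus, where RNA polymerase I transcribes a long precursor RNA. Small nucleolar ribonucleoproteins (snoRNPs) then guide its chemical modification, and large assemblies of helicases, nucleases and scaffold proteins cut it and fold it into a small and a large subunit. Production of ribosomes is tied to cell growth, and many of its genes are known targets of the transcription factor MYC, which binds the 6-base sequence CACGTG, called the E-box.

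Library totals over all genes were 4296296, 4086711, 3747090 and 4301987 counts in the shPROX1 libraries, against 4245571, 4055205, 4134308 and 4865161 in the control libraries. PROX1 had 7.68, 10.3, 9.07 and 8.14 CPM (counts scaled to the library total) in shPROX1 libraries, against 20.02, 16.3, 16.7 and 21.6 CPM in control libraries. The PROX1 ranges did not overlap (log2 change -1.07 ± 0.15, edgeR adjusted p = 4.89e-06). Muscle markers were present in both groups, with MYOD1 at 72.2 ± 4.49 CPM in shPROX1 and 71.2 ± 7.72 CPM in control (SD, n = 4 each). MYOG, DES, MYH3, CDH15 and PAX7, 5 of the 7 muscle markers, were lower in shPROX1, and none of the 7 was higher. Among all tested genes 17.9% were lower and 17.3% higher (edgeR adjusted p under 0.05). Summed over each library, 5 epithelial markers stayed between 0 and 0.534 CPM in shPROX1 and between 0 and 0.411 CPM in control. The 5 blood markers stayed between 0.245 and 0.697 CPM in shPROX1 and between 0.242 and 1.03 CPM in control. Of other defining markers, CDH5 was at 0 and PDGFRA, DCN, LUM, PECAM1 and VWF each averaged under 1 CPM, while the collagen COL3A1 averaged 8073 CPM in shPROX1 and 10892 CPM in control, COL1A1 64.5 CPM in shPROX1 and 55.4 CPM in control, and the angiopoietin receptor TEK 41.9 CPM in shPROX1 and 44.6 CPM in control. CPM gives the share of a library, so a change in the amount of a transcript per cell and a change in its share cannot be told apart.

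Most of the ribosome biogenesis genes that changed were higher after PROX1 silencing, and all changes were small. Of the 35 members, all of which passed the filter on low counts, 19 (54.3%) rose and 3 (8.57%) fell, while 13 did not pass the test. Across the 12392 tested genes 17.3% rose and 17.9% fell. Among the 8504 tested genes within the CPM range of the members, 21.3% rose and 19.5% fell. These genes were not matched to the members by level inside that range. The 35 members were chosen with earlier results of these data known, so how far that choice set their share cannot be told. Of 167 other tested ribosome biogenesis genes 22.2% rose and 5.39% fell. A gene is said to have risen or fallen where edgeR's quasi-likelihood test passed an adjusted p of 0.05 over all tested genes. The median log2 change was 0.15 for the members and -0.01 for all tested genes. In 14 members the shPROX1 libraries all lay above the control libraries, and in 3 members all lay below. Over all tested genes such a separation was seen in 14.4% upwards and 17.9% downwards. Log2 changes, shPROX1 minus control with the standard error of the fit, ran from -0.41 for NIP7 to 0.46 for SRM, and 32 members differed by less than 0.3 in either direction, the exceptions being SRM, NIP7 and RRP1B. A test against a 1.5-fold change called 0 members.

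**Figure D1:**
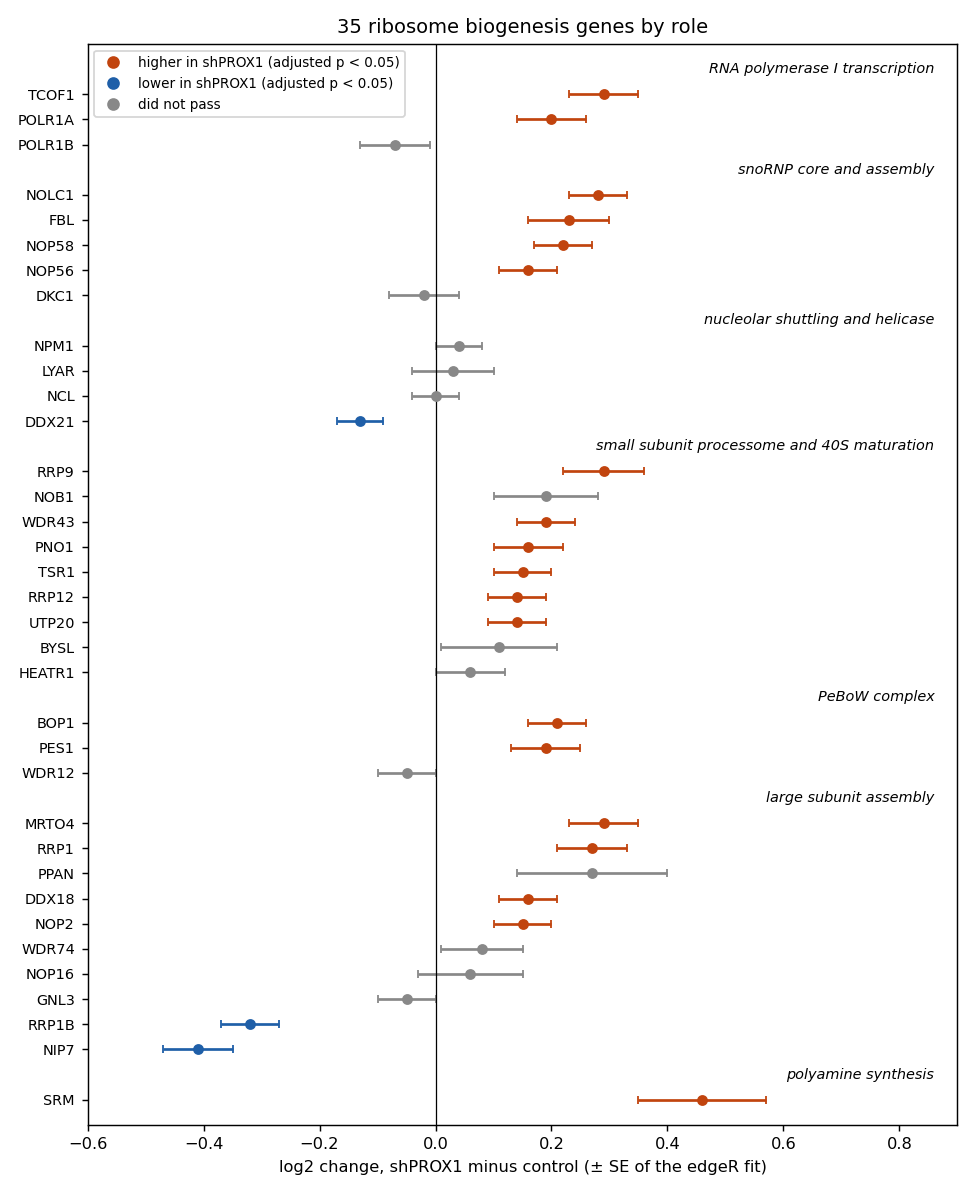
Log2 change (shPROX1 minus control, horizontal axis) of the 35 genes, grouped by role, with bars for the standard error of the edgeR fit. Orange marks the 19 genes that rose, blue the 3 that fell (NIP7, RRP1B and DDX21) and grey the 13 that did not pass.

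The E-box was searched in RefSeq promoter windows (GRCh38.p14, 250 bases before to 50 bases after a gene's start), of which the reference table held 28 of the 35 members. The sequence CACGTG reads the same on both strands. It was present in the windows of 13 of these 28 members (46.4%), against 26.5% of 147 other ribosome biogenesis genes, 6.35% of 63 cytosolic ribosomal protein genes, 13.0% of 9664 tested genes and 8.77% of all 27305 genes in the table. By direction it was found in 9 of the 13 matched members that rose, 1 of the 2 that fell and 3 of the 13 that did not pass. Of the 9, PNO1, NOP2, UTP20, FBL and PES1 lost their call without at least 1 single library. So did TSR1, which rose and had no E-box. POLR1A, NOP56 and RRP1 also rose without an E-box in their windows. TCOF1, NOP58, NOLC1, BOP1, RRP12 and DDX18 rose but had no window in the reference table. Whether the share differs by direction was not tested. Of the 13 E-boxes, 11 had their first base within 50 bases of the start. The window ends 50 bases after the start, so this was fixed in advance for the 8 that lie downstream. Of 5 sequence elements searched, which were chosen after values were seen, the E-box was found in the largest number of members (13 of 28). The 9 E-boxes of members that rose are shown 5′ to 3′ on the gene's strand with up to 12 bases on each side. Capitals mark the E-box.
SRM: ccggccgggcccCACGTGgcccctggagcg
MRTO4: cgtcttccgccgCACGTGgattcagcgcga
WDR43: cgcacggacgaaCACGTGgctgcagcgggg
PNO1: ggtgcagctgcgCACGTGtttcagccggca
RRP9: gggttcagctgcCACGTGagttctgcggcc
NOP2: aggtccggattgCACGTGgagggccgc
UTP20: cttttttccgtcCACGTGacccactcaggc
FBL: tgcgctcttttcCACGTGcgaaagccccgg
PES1: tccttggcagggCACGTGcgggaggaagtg

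These windows lie at chr1:11060200-11060229 (SRM, minus strand), chr1:19251807-19251836 (MRTO4, plus), chr2:28894658-28894687 (WDR43, plus) and chr2:68157885-68157914 (PNO1, plus). Those of RRP9 and NOP2 lie at chr3:51941892-51941921 and chr12:6568242-6568268 on the minus strand, and that of UTP20 at chr12:101280083-101280112 on the plus strand. Those of FBL and PES1 lie at chr19:39846356-39846385 and chr22:30591880-30591909 on the minus strand. Counted from the start, the first base of the E-box was at position 4 in WDR43, 7 in FBL, 10 in PNO1, 14 in PES1, 15 in MRTO4 and 36 in NOP2, and upstream at -5 in RRP9, -10 in UTP20 and -199 in SRM. The member DDX21, which fell, also carried an E-box.
DDX21: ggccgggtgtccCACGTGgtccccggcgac
The DDX21 window lies at chr10:68956604-68956633 (plus strand), with the E-box at position -31 of 1 of its 2 annotated starts. Among members that did not pass, GNL3, LYAR and BYSL carried it. On both strands the ETS core CCGGAAG was in 9 of the 28 members (32.1%, against 23.7% of tested genes), TATAAA in 1 (3.57%, against 8.30%) and the palindrome of NRF1 in 2 (7.14%, against 2.77%). The last element searched, another CG-rich palindrome, was in 0 of the 28 (against 1.08%). A match describes letters in a window and shows no binding.

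MYC, with 166, 181, 175 and 176 CPM in shPROX1 and 226, 243, 229 and 223 CPM in control, was lower after silencing (log2 change -0.38 ± 0.05, edgeR adjusted p = 3.32e-06). Of the 9 tested genes of the MYC network 0 rose and 4 fell (44.4%, against 17.9% of all tested genes). Beside MYC these were MXD4 (-0.50 ± 0.14) and MXI1 (-0.32 ± 0.09), which encode antagonists of MYC, and MGA (-0.15 ± 0.05), which encodes another partner of MAX. MAX, the partner that MYC needs to bind DNA (0.20 ± 0.10, edgeR adjusted p = 0.125), and MLX (0.07 ± 0.09) did not pass.

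RNA polymerase I genes. Of the 3 members in this role, 2 rose and 1 did not pass. TCOF1 encodes treacle, a nucleolar phosphoprotein that promotes transcription of ribosomal DNA. It had 129, 128, 149 and 136 CPM in shPROX1, against 111, 111, 110 and 117 CPM in control. Every shPROX1 library was above every control library (log2 change 0.29 ± 0.06, fold 1.23, edgeR adjusted p = 0.000299). POLR1A, the largest subunit of RNA polymerase I, had 194, 185, 173 and 182 CPM in shPROX1 and 152, 153, 175 and 170 CPM in control. Control replicate 3 lay above the lowest shPROX1 library, and the test passed (0.20 ± 0.06, edgeR adjusted p = 0.00876). POLR1B, the other catalytic subunit of the enzyme, had 95.9, 104, 112 and 97.2 CPM in shPROX1 and 110, 116, 105 and 104 CPM in control. The POLR1B ranges overlapped and the value of -0.07 ± 0.06 did not pass (edgeR adjusted p = 0.427). Of 17 other tested genes of the polymerase and its initiation factors, 3 rose and 0 fell (median 0.09). The share that rose was 17.6%, near the 17.3% of all tested genes, of which 17.9% fell. POLR1C (0.26 ± 0.07) and POLR2K (0.26 ± 0.08), subunits that RNA polymerase I shares with other polymerases, were among those that rose, and TAF1D (-0.09 ± 0.06) did not pass.

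The snoRNP genes. Of 5 members, 4 rose and 1 did not pass. NOLC1, a phosphoprotein chaperone of snoRNPs, had 442, 423, 416 and 434 CPM in shPROX1, against 348, 366, 350 and 374 CPM in control. The groups were well separated (log2 change 0.28 ± 0.05, edgeR adjusted p = 4.38e-05). NOP58 and NOP56 are the paired scaffold proteins of box C/D snoRNPs, which guide methylation of ribosomal RNA. NOP58 had 408, 391, 379 and 390 CPM in shPROX1, against 317, 347, 349 and 358 CPM in control. NOP56 had 388, 391, 375 and 384 CPM in shPROX1, against 366, 335, 356 and 339 CPM in control. Both scaffold genes were higher in all 4 shPROX1 libraries than in any control library (0.22 ± 0.05 for NOP58, 0.16 ± 0.05 for NOP56). FBL, the fibrillarin methyltransferase of the same particles, had 92.4, 98.6, 108 and 109 CPM in shPROX1, against 97.3, 85.3, 89.5 and 82.6 CPM in control. Control replicate 1 lay inside the shPROX1 range, and FBL rose with an edgeR adjusted p = 0.0109 (0.23 ± 0.07). Its call was lost without shPROX1 replicate 4 (0.19, edgeR adjusted p = 0.0505). DKC1, the pseudouridine synthase of box H/ACA snoRNPs, averaged 177 ± 14.2 CPM in shPROX1 and 183 ± 6.16 CPM in control and did not pass (-0.02 ± 0.06). Among 14 other snoRNP proteins and assembly factors 5 rose (35.7%) and 1 fell (7.14%), with a median of 0.07. Over all tested genes 17.3% rose and 17.9% fell. NUFIP1 (0.56 ± 0.15) and ZNHIT6 (0.39 ± 0.07), which help to assemble box C/D particles, rose. PIH1D1, part of the R2TP chaperone, fell (-0.33 ± 0.08), and the ATPase gene RUVBL1 (0.04 ± 0.05) did not pass.

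Annotated snoRNA genes lie inside 8 members (27 genes in all, among them 5 in NOP56, 4 in NOP58 and 6 in GNL3). They gathered 67, 52, 51 and 101 counts in shPROX1 libraries, against 63, 47, 69 and 54 in control libraries, and no single snoRNA exceeded 14 counts in a library. At so few counts no comparison was made.

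Nucleolar shuttling and helicase genes. None of these 4 members rose and 1 fell (25.0%), while 17.3% of all tested genes rose and 17.9% fell. NPM1, the nucleolar chaperone nucleophosmin, had the highest level of all members both per library and per kb of exon (525 CPM per kb in shPROX1, 521 in control). Its libraries held 2055, 2126, 1902 and 1962 CPM in shPROX1 and 2028, 1977, 2002 and 1969 CPM in control. The NPM1 groups overlapped (log2 change 0.04 ± 0.04, edgeR adjusted p = 0.467). Of its 50-base words 18.9% also occur in transcripts of other genes, among them the pseudogene NPM1P27, so its level is uncertain. NCL, nucleolin, averaged 1011 ± 44.2 CPM in shPROX1 and 1029.7 ± 52.9 CPM in control (edgeR adjusted p = 0.974), and LYAR, a zinc-finger protein of the nucleolus, 65.4 ± 5.07 CPM in shPROX1 and 65.3 ± 2.87 CPM in control (edgeR adjusted p = 0.798). Neither passed. DDX21, a nucleolar RNA helicase, had 759, 749, 735 and 758 CPM in shPROX1, against 820, 852, 810 and 855 CPM in control. The groups did not overlap and DDX21 fell by 0.13 on the log2 scale (SE 0.04, edgeR adjusted p = 0.00959). All 35 members together made up 0.959%, 0.960%, 0.922% and 0.943% of counts in shPROX1. In control they made up 0.906%, 0.918%, 0.929% and 0.913%, and these ranges overlapped. NPM1 and NCL hold much of that sum, and the sum without them was not compared.

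**Figure D2:**
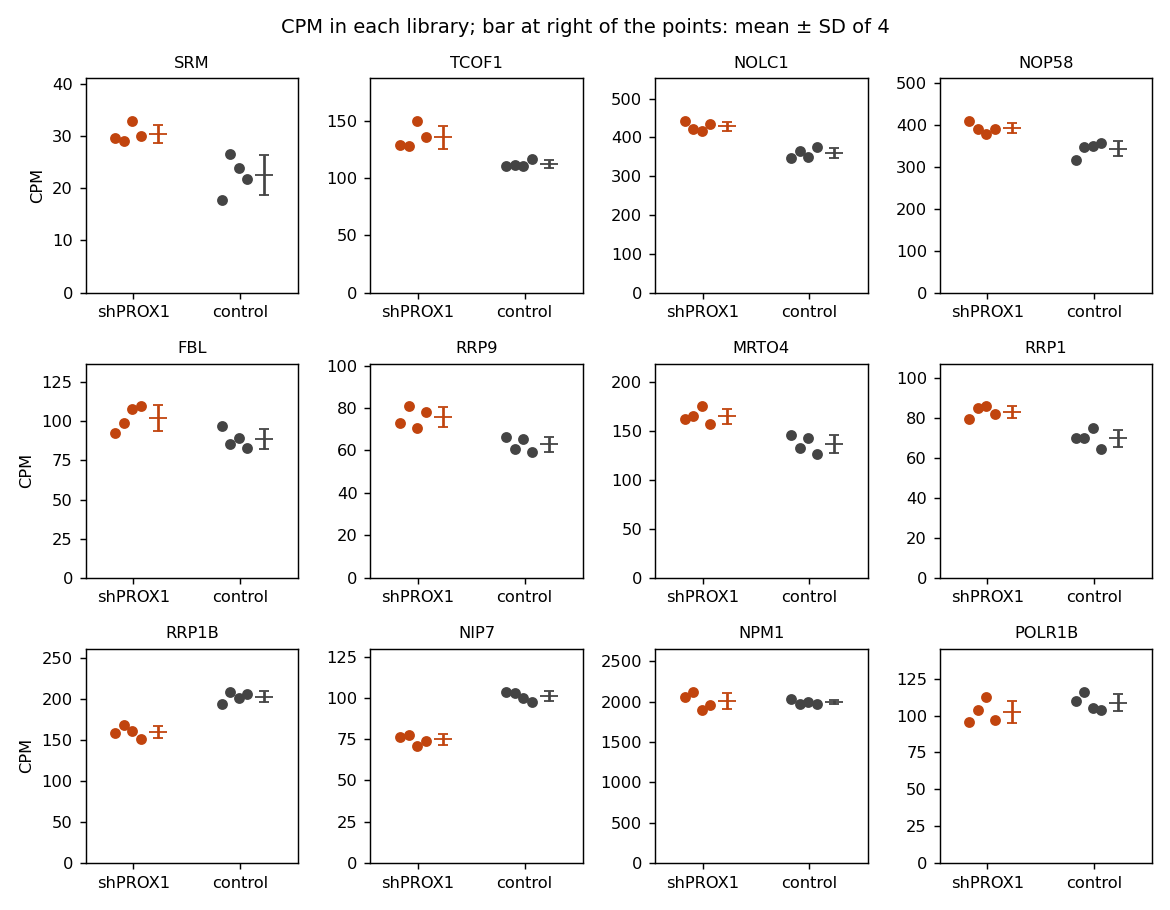
CPM of 12 members in each library (points), with the mean and SD of 4 libraries as a bar to the right, shPROX1 in orange and control in dark grey. SRM, TCOF1, NOLC1, NOP58, RRP9, MRTO4 and RRP1 lay higher in all shPROX1 libraries, RRP1B and NIP7 lower, while FBL, NPM1 and POLR1B overlapped.

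Small subunit genes. Of 9 members, 6 rose (66.7%, against 17.3% of all tested genes) and 3 did not pass. The fitted change was above 0 in all 9. RRP9, a protein bound to the U3 snoRNA, had 73.1, 80.7, 70.7 and 78.1 CPM in shPROX1, against 66.4, 60.9, 65.3 and 59.2 CPM in control. The groups did not overlap (log2 change 0.29 ± 0.07, edgeR adjusted p = 0.00177). WDR43, a subunit that joins the precursor early, had 268, 257, 261 and 255 CPM in shPROX1, against 230, 241, 213 and 245 CPM in control (0.19 ± 0.05, edgeR adjusted p = 0.00635). Its groups did not overlap either. UTP20, a large scaffold, had 441, 423, 469 and 425 CPM in shPROX1, against 362, 422, 420 and 421 CPM in control (0.14 ± 0.05, edgeR adjusted p = 0.0434). Control replicate 1 was low for UTP20 and the other 3 controls lay just under the shPROX1 values. The change of UTP20 was 0.09 without that library (edgeR adjusted p = 0.141). It also did not pass without shPROX1 replicate 1, 3 or 4 (edgeR adjusted p = 0.0948, 0.119 and 0.0562).

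RRP12, which takes part in export of pre-ribosomes, had 260, 256, 261 and 285 CPM in shPROX1, against 250.4, 245, 255 and 231 CPM in control (0.14 ± 0.05, edgeR adjusted p = 0.0431). The groups were separate by a narrow margin. RRP12 did not pass without control replicate 2 or 4 (edgeR adjusted p = 0.0677 and 0.145) or without shPROX1 replicate 1, 2 or 4 (edgeR adjusted p = 0.0661, 0.0501 and 0.185). The late factors TSR1 and PNO1 rose as well. TSR1 averaged 253 ± 8.86 CPM in shPROX1 and 231 ± 8.86 CPM in control (0.15 ± 0.05). PNO1, a partner of the nuclease NOB1, averaged 91.5 ± 3.82 CPM in shPROX1 and 83.1 ± 0.634 CPM in control (0.16 ± 0.06). TSR1 did not pass without control replicate 2 or 4 (edgeR adjusted p = 0.0603 and 0.0568) or shPROX1 replicate 1 or 4 (edgeR adjusted p = 0.0732 and 0.0647). PNO1 did not pass without control replicate 2, 3 or 4 (edgeR adjusted p = 0.0501, 0.0569 and 0.0655) or shPROX1 replicate 1 or 2 (edgeR adjusted p = 0.111 and 0.0637), nor with DESeq2 (adjusted p = 0.0875).

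NOB1, the nuclease that makes the final cut of the small subunit RNA, averaged 34.6 ± 2.57 CPM in shPROX1 and 31.0 ± 3.06 CPM in control and did not pass (0.19 ± 0.09, edgeR adjusted p = 0.133), although it did without control replicate 3 (0.26, edgeR adjusted p = 0.0479). BYSL (0.11 ± 0.10) and the scaffold gene HEATR1 (0.06 ± 0.06) did not pass. Exons of HEATR1, NOB1 and TSR1 overlap genes on the opposite strand over 23.2%, 20.2% and 20.8% of their bases, and of these partners SGSM2 alone, beside TSR1, exceeded 5 CPM (59.0 CPM in shPROX1, 64.9 in control). Of 42 other tested genes grouped here with the small subunit processome 7 rose (16.7%) and 0 fell (median 0.07). Over all tested genes 17.3% rose and 17.9% fell. Among the 42, RRP8 (0.34 ± 0.09) and NOL6 (0.32 ± 0.05) had the largest rises. The most abundant, PDCD11 (-0.06 ± 0.05), did not pass. Of 11 other late small subunit genes 1 rose (9.09%), TSR3 (0.24 ± 0.08), an RNA-modifying enzyme, and TRMT112 (0.08 ± 0.06) did not pass.

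Large subunit genes. The PeBoW complex, named after its members, is needed to process the large subunit RNA. BOP1 had 184, 191, 192 and 207 CPM in shPROX1, against 173, 163, 172 and 169 CPM in control (log2 change 0.21 ± 0.05, edgeR adjusted p = 0.00212). PES1 had 166, 176, 171 and 177 CPM in shPROX1, against 165, 155, 157 and 141 CPM in control (0.19 ± 0.06, edgeR adjusted p = 0.0117). Both were higher in every shPROX1 library, and PES1 did not pass without control replicate 4 (0.14, edgeR adjusted p = 0.0663). WDR12, the third subunit, had 183, 203, 191 and 181 CPM in shPROX1 and 207, 198, 197 and 194 CPM in control. Its groups overlapped and it did not pass (-0.05 ± 0.05, edgeR adjusted p = 0.508).

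Of 10 further members that act in large subunit assembly 4 rose, 2 fell and 4 did not pass. MRTO4, a factor of ribosomal stalk assembly, had 162, 165, 175 and 157 CPM in shPROX1, against 146, 132, 142 and 126 CPM in control, without overlap (0.29 ± 0.06, fold 1.23). DDX18, an RNA helicase, averaged 293 ± 14.4 CPM in shPROX1 and 267 ± 7.55 CPM in control (0.16 ± 0.05, edgeR adjusted p = 0.018). NOP2, a cytosine methyltransferase of the large subunit RNA, averaged 178 ± 9.84 CPM in shPROX1 and 164 ± 4.32 CPM in control (0.15 ± 0.05, edgeR adjusted p = 0.0336). DDX18 did not pass without shPROX1 replicate 1 or 2 (edgeR adjusted p = 0.0708 and 0.0695). NOP2 did not pass without control replicate 2 or 4 (edgeR adjusted p = 0.0702 and 0.093) or without shPROX1 replicate 1, 2 or 4 (edgeR adjusted p = 0.0851, 0.128 and 0.0588). NOP2 also shares 54.4% of its exon bases with an overlapping annotated transcript on the same strand, which was not analysed here.

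RRP1 and RRP1B, related genes that both lie on the plus strand of chromosome 21 (43789513 to 43805293 and 43659548 to 43696079, GRCh38), went opposite ways. RRP1 had 79.4, 84.9, 85.9 and 82.3 CPM in shPROX1, against 69.96, 70.3, 75.0 and 64.7 CPM in control (0.27 ± 0.06, edgeR adjusted p = 0.00176). RRP1B had 159, 168, 161 and 151 CPM in shPROX1, against 194, 209, 202 and 206 CPM in control (-0.32 ± 0.05, edgeR adjusted p = 2.73e-05). Neither pair of groups overlapped. Per kb of exon RRP1 stood at 19.6 CPM in shPROX1 and 16.5 in control, and RRP1B at 27.7 CPM in shPROX1 and 35.2 in control. No 50-base word of RRP1B occurred in another gene's transcripts, so the reads of these genes are told apart at that length.

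NIP7, which takes part in maturation of the large subunit RNA (chromosome 16, 69337996 to 69343111, plus strand), showed the largest fall of the members. NIP7 had 76.6, 77.8, 70.7 and 74.2 CPM in shPROX1, against 104, 103, 100.1 and 97.4 CPM in control. All shPROX1 libraries were lower (-0.41 ± 0.06, fold 0.753, edgeR adjusted p = 9.2e-06). COG8 on the opposite strand overlaps 20.2% of its exon bases and averaged 10.2 CPM in shPROX1 and 11.5 in control. GNL3, the GTPase nucleostemin, averaged 315 ± 15.3 CPM in shPROX1 and 332 ± 14.1 CPM in control (-0.05 ± 0.05). GNL3 did not pass, nor did WDR74 (0.08 ± 0.07), NOP16 (0.06 ± 0.09) or PPAN (0.27 ± 0.13). PPAN had the fewest counts of the members, 62 to 78 per shPROX1 library and 57 to 74 per control library, and its change had the largest error. It shares 59.8% of its exon bases with P2RY11 and a read-through gene. Exons of NOP16 overlap ARL10 and HIGD2A on the opposite strand (19.95% of bases), of which ARL10 fell (-0.62 ± 0.17).

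Of 59 other tested genes of large subunit assembly 14 rose (23.7%) and 5 fell (8.47%), with a median of 0.07. Over all tested genes 17.3% rose and 17.9% fell. EIF6, which keeps the subunits from joining too early, had the largest rise, with 158, 149.5, 137 and 155 CPM in shPROX1 against 107, 97.2, 98.9 and 103 CPM in control (0.58 ± 0.06). NSA2 rose (0.33 ± 0.07). URB2 (-0.37 ± 0.06) and RSL24D1 (-0.30 ± 0.07) fell, and the helicase gene DDX54 (0.10 ± 0.06) did not pass. Of 24 tested genes of the exosome and other nucleases of precursor RNA 7 rose (29.2%) and 3 fell (12.5%), with a median of 0.10. POP4 (0.37 ± 0.08) and POP1 (0.33 ± 0.07), shared subunits of the RNases P and MRP, rose. The exonuclease XRN2 (-0.34 ± 0.05) and the exosome core gene EXOSC6 (-0.25 ± 0.07) fell, and EXOSC10 (-0.11 ± 0.05) did not pass.

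SRM encodes spermidine synthase, an enzyme of polyamine synthesis rather than a ribosome assembly factor. It showed the largest rise of the members, with 29.6, 29.1, 32.8 and 30.0 CPM in shPROX1 against 17.7, 26.6, 23.9 and 21.8 CPM in control. The shPROX1 libraries were close together, above every control library (0.46 ± 0.11, fold 1.37, edgeR adjusted p = 0.00262). Without single libraries its change ran from 0.36 to 0.55. Other polyamine genes went both ways, 3 up (33.3%) and 2 down (22.2%) among 9, against 17.3% and 17.9% of all tested genes. The spermine oxidase SMOX (1.12 ± 0.15) and spermine synthase SMS (0.24 ± 0.07) rose, AMD1, which supplies the aminopropyl donor, fell (-0.24 ± 0.05), and the entry enzyme ODC1 (-0.05 ± 0.05) did not pass.

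**Figure D3:**
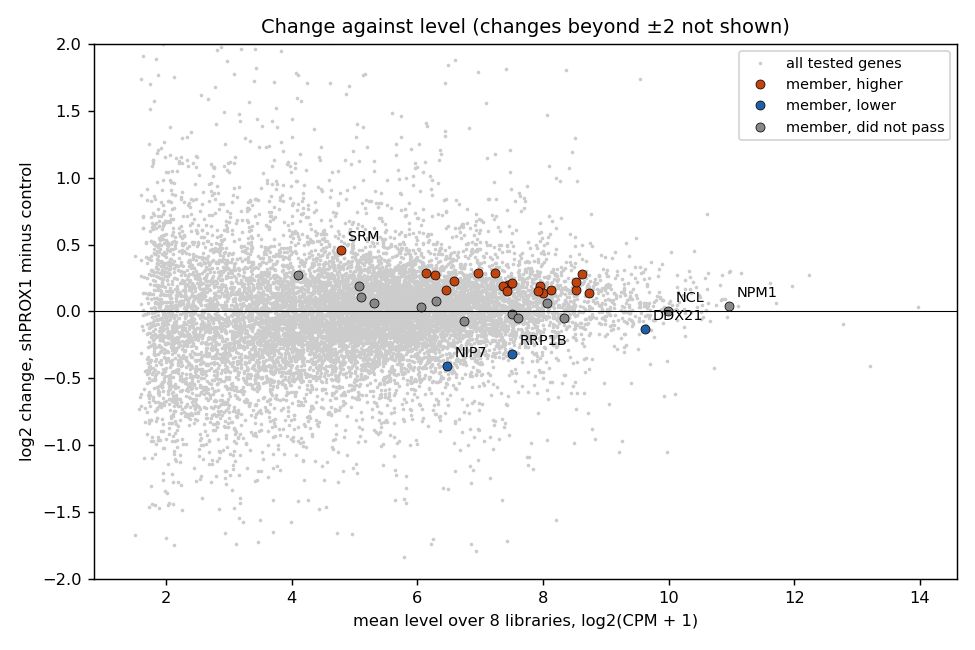
Log2 change (shPROX1 minus control, vertical axis) against the mean level over 8 libraries as log2(CPM + 1), for all tested genes in pale grey and the 35 members in colour, with 37 genes beyond a change of 2 not shown. The members lie in a narrow band, with most of those that rose just above 0 and NPM1, NCL and DDX21 at the highest levels.

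Set against the rest of the pathway, the 167 tested genes of ribosome biogenesis outside the 35 counted 37 higher (22.2%) and 9 lower (5.39%), with a median log2 change of 0.07. The 79 cytosolic ribosomal protein genes counted 18 higher (22.8%) and 1 lower (1.27%), with a median of 0.05. Beside these shares, 17.3% of all tested genes were higher and 17.9% lower. In the CPM range of the members 21.3% were higher and 19.5% lower, so the upward shares of both lists were near background. RPS26 (0.28 ± 0.05) and RPS16 (0.26 ± 0.06) were the largest rises among them, RPS24 (-0.12 ± 0.04) fell and RPS18 (0.04 ± 0.05) did not pass. Whether the members differ from these lists was not tested. Between replicates the members had a median pooled SD of 0.0702 on the log2(CPM + 1) scale. It was 0.102 for all tested genes in their CPM range, which were not matched by level inside it.

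**Figure D4:**
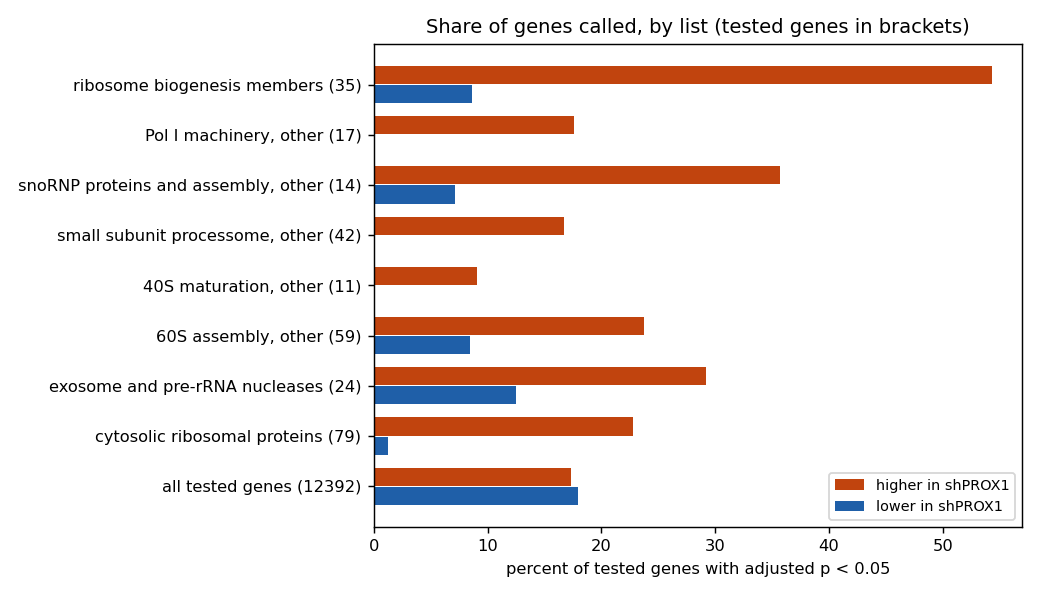
Percent of tested genes with an edgeR adjusted p under 0.05 that were higher (orange) or lower (blue) in shPROX1, for the members, 6 lists of other ribosome biogenesis genes, ribosomal protein genes and all tested genes. The members stand at 54.3% higher and 8.57% lower, and all tested genes at 17.3% higher and 17.9% lower.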

How the data were processed

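The 8 libraries were made from total RNA with a directional kit, per the labels' protocols. Each deposited file holds the raw gene counts of 1 library, not normalized by the authors. HISAT2, HTSeq, FastQC and DESeq2 and the build GRCh38 are named in the submitters' processing notes. Their versions, the annotation and the strand setting are not given in the sources used here. How reads over overlapping genes were counted is therefore uncertain. Groups and replicate numbers come from the labels, and nothing says which cultures were separate beyond the design calling the replicates biological. No 2 libraries of a group held the same counts. Chi-square over degrees of freedom, which is near 1 for counting noise alone, was 1.19 to 2.16 in pairs of shPROX1 libraries and 2.39 to 6.34 in pairs of control libraries, so the shPROX1 libraries differed less among themselves, and the pair furthest apart was control replicates 1 and 4. P-values set the difference between the groups against the spread between these libraries. They do not cover other hairpins or cell lines.

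Identifiers were matched to GENCODE 29 (58039 of 58302), which gave symbols, 1-based coordinates, exon lengths and overlaps. The 35 members and all lists were chosen with earlier results of these data known. CPM is scaled to the library total. The test was edgeR's quasi-likelihood F test (edgeR 4.0.16, R 4.3.3) with TMM factors (0.989 to 1.02), filterByExpr and no term besides group, adjusted by Benjamini-Hochberg over 12392 tested genes. The biological coefficient of variation was 6.41%. A count of 0 allows up to 3 counts, 0.697 to 0.801 CPM in shPROX1 and 0.617 to 0.740 CPM in control, for counting error only. All members, PROX1 and MYC are named. From each other list up to 2 genes that rose and 2 that fell, of at least 5 CPM, and the most abundant uncalled gene are named, and MAX, MXI1, MGA and the marker genes beside these were added after their values were seen. Values per library are given for SRM, NIP7, NPM1, FBL, POLR1A and POLR1B by rule and for the others by choice after their values were seen. Motifs were also chosen then.

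Alternatives were RLE and upper-quartile factors, other filters, DESeq2 1.42.0, limma voom 3.58.1, the replicate number as a block, stricter thresholds, a loess offset (span 0.5) on exon length and GC content and each library left out. On simulated data for the comparison of shPROX1 with control (12392 genes) edgeR found 31.2% of 80 genes simulated with a change of 0.3 (log2), 68.8% of 77 with 0.5 and 95% of 40 with 1. It called 4 of 12070 genes simulated without change. Figures were drawn with matplotlib 3.10.9, and tables made with pandas 2.3.3 under Python 3.11.15.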

Additional observations from a re-analysis of the deposited data

Results flagged for a closer look

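In 4 of 72 groups of 4 libraries (PROX1 and the 35 members, 2 groups each) the highest or lowest library stood far from the others by Dixon's criterion, where chance flags about 1 in 20 groups. UTP20 had 362 CPM in control replicate 1, against 420 to 422 CPM in the other controls. TCOF1 had 117 CPM in control replicate 4, against 110 to 111 CPM in the others. RRP12 had 285 CPM in shPROX1 replicate 4, against 256 to 261 CPM in the other shPROX1 libraries. NOB1 had 35.6 CPM in control replicate 3, against 29.2 to 30.1 CPM in the others. No cause was tested.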

How the results depend on the processing

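Counts of members were 13 to 19 higher and 3 lower when each library was left out in turn, and 17 to 19 higher and 3 lower under the other alternatives at the same threshold. The median log2 change of the members was 0.14 to 0.18 without single libraries and 0.14 to 0.17 under the others, while that of all genes stayed between -0.01 and 0.02. Of the 19 members that rose, 11 passed without any single library, the same 11 that had an adjusted p under 0.01, and 8 were lost without at least 1. An adjusted p of 0.01 left 11 members and 22 other ribosome biogenesis genes higher. The test against 1.5-fold called 0 members and 0 other ribosome biogenesis genes in either direction, and 204 higher and 165 lower among all genes (the cause was not tested). Signs turned for uncalled members near 0. NCL was at 0.0 with DESeq2 and RLE factors, at 0.01 with either other filter and at -0.03 to 0.03 without single libraries. Without single libraries DKC1 ran from -0.07 to 0.02, LYAR from -0.02 to 0.06 and NOP16 from -0.0 to 0.12. PROX1 ran from -1.15 to -0.99 without single libraries. Deviations of same-numbered libraries from their group means had correlations of -0.0723 to 0.0605 over 11064 genes. For differently numbered libraries they ran from -0.258 to 0.193. No pairing by number was seen by this measure, which rests on 4 libraries a group. With the replicate number as a block 17 members were higher and 3 lower, and RRP12 (adjusted p = 0.0657) and NOP2 (adjusted p = 0.0522) lost their calls. UTP20 and RRP12 (adjusted p = 0.0543 and 0.0596) lost theirs with upper-quartile factors, and PNO1 (adjusted p = 0.0624) with no filter. Of the 32 members with a change under 0.3 in either direction 19 were called. In data simulated at this depth and with 4 libraries a group, 31.2% of genes with a change of 0.3 were called. Depth was not told apart from the number of libraries. In those data 12070 genes had no change, whereas 4364 of the 12392 tested genes were called in the real data. The share called at the level and spread of the members was not tested, so the 31.2% is not a rate for them.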
